A study of Homo sapiens with 6 samples.

Results

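Erythroid and megakaryocyte genes were examined in Kasumi-1 cells treated with interleukin-10 (IL-10). The set held 9 listed genes: the transcription factor genes GATA1, KLF1 and GFI1B, the transferrin receptor gene TFRC, the globin genes HBG1, HBG2 and HBD, the platelet integrin gene ITGA2B and the platelet chemokine gene PF4. Members were found by matching the Ensembl identifiers of the deposited table of 27576 genes to these symbols. Of the 9 genes, 5 had a row, and HBG1, HBG2, HBD and PF4 had none, so under this rule they count as not detected. Kasumi-1 is an established acute myeloid leukaemia line with the RUNX1-RUNX1T1 fusion gene. The IL-10 group was given 10 ng/ml of recombinant human IL-10 for 72 h and the control group 0.5% bovine serum albumin for 72 h, both in RPMI1640 medium with 20% fetal bovine serum. Each group had 3 libraries, numbered 1 to 3. Whether the libraries of a group came from separate cultures is not stated, and the spread behind every p-value may thus be technical. All 6 came from 1 cell line, and no other line was measured.

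GATA1 is a zinc finger factor that drives red cell and megakaryocyte gene expression, and in haematopoiesis it takes over binding sites held earlier by GATA2. KLF1 acts with it at globin and other red cell genes through CACCC elements, and GFI1B is a repressor needed for both lineages. As red cell precursors mature they take up transferrin-bound iron through TFRC for haem synthesis, while megakaryocytes display the integrin subunit encoded by ITGA2B and store the chemokine encoded by PF4. In bulk RNA, fewer cells of a type and less RNA per cell cannot be told apart.

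Values are normalised read counts, that is, reads per gene divided by 1 size factor per library. Recovered depth was 20750115 to 23077693 reads in the IL-10 libraries and 22429270 to 24222897 reads in the control libraries. IL-10 replicate 2 stood apart: the first principal component, with 75.4% of the variance, placed it at 59 and the other 5 libraries between -23.6 and 11.5. Its deviation from the other libraries moved with the GC content of the transcripts, with a median of -0.71 on the log2 scale among the 1158 genes of lowest GC and 0.86 among the 1158 of highest GC. Liver markers other than SERPINA1, 11 genes, summed to 15, 538 and 20.9 in IL-10 replicates 1 to 3 and to 23.3, 1146 and 29.4 in control replicates 1 to 3, so both libraries numbered 2 carried them. The part of GC content and of these transcripts in the results was not tested. Values without IL-10 replicate 2 are therefore given beside the fold changes that it moved most. Of 6 markers listed for the line itself, MPO, KIT, CD34, RUNX1T1 and CD33 each had a mean of at least 1876 normalised reads over the 6 libraries and PROM1 had 0.792. KIT had 53136, 29296 and 41083 in the IL-10 libraries and 54533, 38003 and 41215 in the control libraries.

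The expression levels of the 5 genes lay far apart. Per kilobase of the longest transcript, TFRC averaged 4087 ± 682 in IL-10 libraries and 4395 ± 144 in control libraries (SD, n = 3 each). ITGA2B followed with 166 ± 0.874 per kilobase in IL-10 libraries and 143 ± 27.4 in control libraries. KLF1 had 36.2 ± 31.3 per kilobase in IL-10 libraries and 23.3 ± 6.64 in control libraries, and the first of these means rests on IL-10 replicate 2. GATA1, at 1.98 ± 1.91 and 3.86 ± 2.97 per kilobase in IL-10 and control libraries, and GFI1B, at 2.16 ± 1.16 and 1.21 ± 0.745, were lowest and did not differ from each other beyond their spread. The order of TFRC, ITGA2B and KLF1 held in every library. Per kilobase of the union of exons, TFRC averaged 2748 and ITGA2B 93 over all 6 libraries, against 4241 and 155 by the longest transcript. GATA1 averaged 2.91 and GFI1B 0.836 by the union, against 2.92 and 1.69, on few reads.

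**Figure D1:**
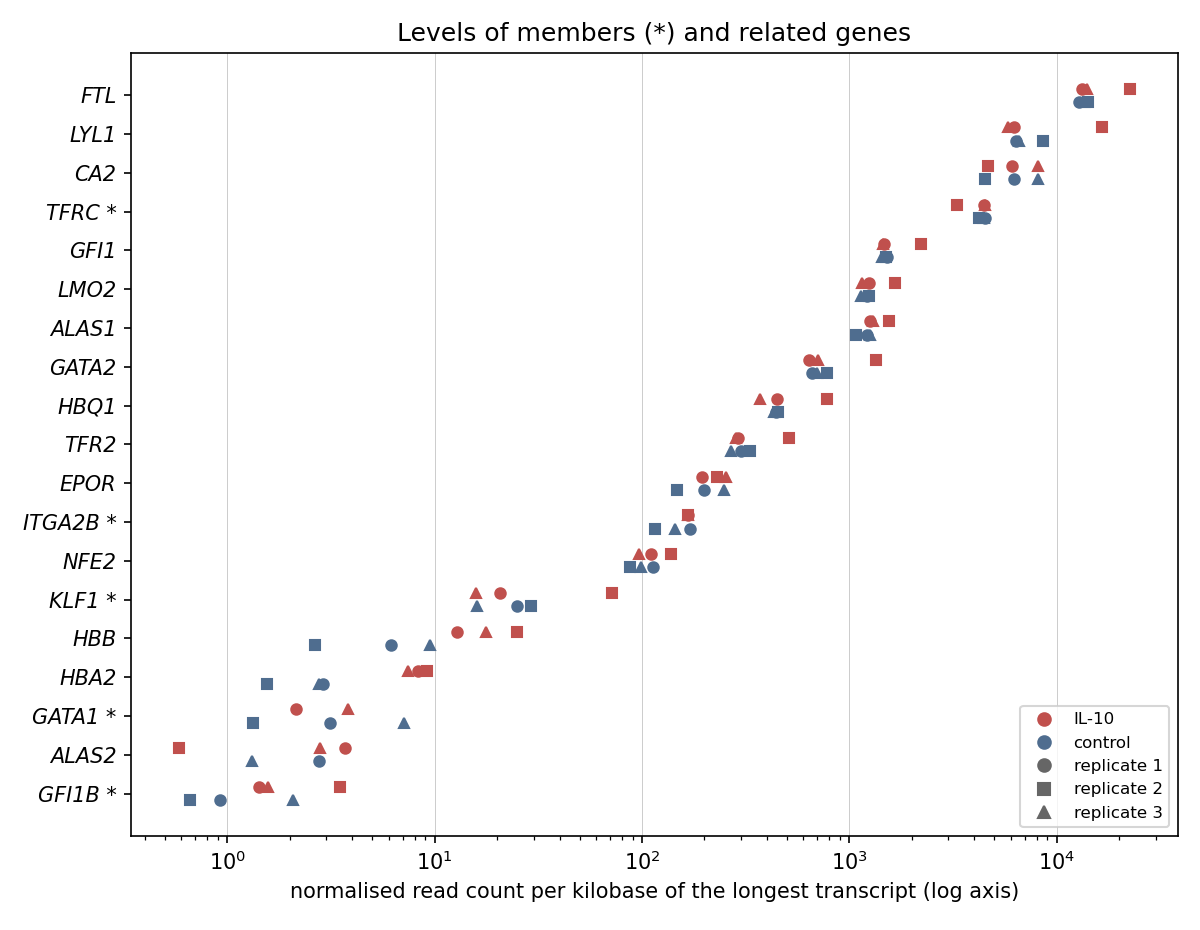
Normalised read count per kilobase of the longest transcript (log axis) for the 5 members (marked with *) and related genes, 1 point per library, IL-10 above control in each row. TFRC stands among the 4 highest genes drawn and GATA1 and GFI1B among the 3 lowest; listed values of 0 (GATA1 in IL-10 replicate 2, ALAS2 in control replicate 2) cannot be drawn on a log axis.

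GATA1 (ENSG00000102145, GRCh38 chromosome X, 48786554 to 48794311, plus strand) had 3.21, 0 and 5.7 normalised reads in IL-10 replicates 1 to 3 and 4.66, 1.99 and 10.7 in control replicates 1 to 3. The IL-10 libraries held 9 reads in all and the control libraries 19. The groups overlapped, and the library at 0 allows up to 3.53 by the floor of 3 reads. The ratio of summed reads, scaled by the size factors, was 0.534, with an exact 95% counting interval of 0.213 to 1.24. Both groups held few reads, and the fitted log2 fold change of -0.94 (SE 0.80, 95% interval -2.74 to 0.87, limma adjusted p = 0.982) depends on the pseudocount. Without IL-10 replicate 2 it was -0.13.

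KLF1 (ENSG00000105610, chromosome 19, 12884422 to 12887199, minus strand) had 33.1, 116 and 25.6 normalised reads in IL-10 replicates 1 to 3 and 40.1, 46.7 and 25.8 in control replicates 1 to 3. Only IL-10 replicate 2 was high, and the other IL-10 libraries lay at or below the control libraries of the same number. The log2 fold change was 0.34 (SE 0.53, 95% interval -0.86 to 1.54, limma adjusted p = 0.982), and it was -0.31 (-1.07 to 0.44) without IL-10 replicate 2. KLF1 transcripts have 65.7% GC, and IL-10 replicate 2 deviated by 1.77 on the log2 scale for KLF1, where the median gene of like GC deviated by 0.86.

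GFI1B (ENSG00000165702, chromosome 9, 132944000 to 132991687, plus strand) had 4.28, 10.6 and 4.75 normalised reads in IL-10 replicates 1 to 3 and 2.79, 1.99 and 6.23 in control replicates 1 to 3. The groups overlapped, with 18 reads in the IL-10 libraries and 12 in the control libraries. Their ratio, scaled by the size factors, was 1.69 (exact 95% counting interval 0.771 to 3.85). The log2 fold change was 0.70 (SE 0.53, 95% interval -0.50 to 1.90, limma adjusted p = 0.982), and 0.34 without IL-10 replicate 2. Exons of GFI1B overlap TSC1 on the opposite strand, and TSC1 had 1135 to 1537 normalised reads in IL-10 libraries and 1367 to 1595 in control libraries. How the authors' counting used strand is not given in the sources used here, so the level of GFI1B is uncertain.

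Promoters are shown for 3 members that hold a GATA motif, since the family of factors that reads it differed so widely in level here. The motif was searched as the letters GATA with A or T before them and A or G after them, and the KLF-type element as CACCC, on both strands of the 250 bases before each RefSeq start (GRCh38.p14). Capitals mark both motifs, read 5′ to 3′ on the gene's strand, in KLF1 (chr19:12887202-12887451, minus), ITGA2B (chr17:44389650-44389899, minus) and the second start of GFI1B (chr9:132978444-132978693, plus).
KLF1: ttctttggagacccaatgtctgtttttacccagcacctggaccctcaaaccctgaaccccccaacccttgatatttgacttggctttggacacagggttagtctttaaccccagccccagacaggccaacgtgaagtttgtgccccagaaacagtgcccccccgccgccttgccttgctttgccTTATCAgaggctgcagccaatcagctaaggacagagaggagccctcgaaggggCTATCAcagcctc
ITGA2B: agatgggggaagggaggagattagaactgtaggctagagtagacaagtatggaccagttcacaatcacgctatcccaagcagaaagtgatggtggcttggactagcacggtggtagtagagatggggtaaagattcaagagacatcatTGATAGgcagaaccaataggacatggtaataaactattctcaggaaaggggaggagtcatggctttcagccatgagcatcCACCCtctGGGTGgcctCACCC
GFI1B: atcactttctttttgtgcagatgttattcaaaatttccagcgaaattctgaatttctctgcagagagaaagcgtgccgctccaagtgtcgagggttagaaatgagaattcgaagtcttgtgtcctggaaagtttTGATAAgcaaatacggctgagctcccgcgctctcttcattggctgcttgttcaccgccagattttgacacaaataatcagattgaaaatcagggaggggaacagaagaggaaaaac
KLF1 held the GATA motif at -66 and -13, ITGA2B at -102 and this GFI1B start at -116, counted from the start site. ITGA2B also held CACCC at -22, -14 and -5. The other GFI1B start and the promoters of GATA1 and TFRC held no GATA motif in this window, that of HBD held 1 GATA motif, and that of GATA1 held 4 CACCC elements. Over 35116 promoters of the same length, 22.3% held the GATA motif and 54.7% held CACCC. A match is only a description of these letters.

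The paralogues GATA2 and GFI1 were far more abundant than GATA1 and GFI1B. GATA2, the paralogue of stem and progenitor cells, had 2142, 4515 and 2369.7 normalised reads in IL-10 libraries and 2220.1, 2637 and 2351 in control libraries. GFI1, the granulocytic paralogue of GFI1B, had 4175, 6354 and 4133 in IL-10 libraries and 4317, 4281 and 4091 in control libraries. For both, IL-10 replicate 2 alone lay above every other library, and their log2 fold changes of 0.25 and 0.18 turned to -0.09 and -0.03 without it. Per kilobase, GATA2 averaged 894 ± 389 in IL-10 libraries and 714 ± 63.4 in control libraries, against the GATA1 levels above. TAL1 and LMO2, which form a complex with GATA factors, had log2 fold changes of 0.09 and 0.15, and ZFPM1, the GATA1 cofactor, 0.40. ZFPM1 was low, with 16.1 ± 12.2 per kilobase in IL-10 libraries and 10.2 ± 1.15 in control libraries (SD, n = 3 each). Without IL-10 replicate 2 the values were -0.08 for TAL1, 0 to 2 decimals for LMO2 and -0.17 for ZFPM1.

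None of the 5 members passed an adjusted p of 0.05 in limma, where 0% of 21946 genes tested did. At an unadjusted p under 0.05 there were 0 members and 344 of all genes (1.57%), and edgeR's quasi-likelihood test and DESeq2 on the recovered reads called 0 genes each, with 266 and 80 at an unadjusted p under 0.05. All 5 members overlapped between IL-10 and control libraries, while 5.87% of all genes did not. The median log2 fold change was 0.23 over the 5 members, 3 of them positive and 2 negative, and 0.02 over all genes tested. Without IL-10 replicate 2 the median over the 5 members was 0.03. Where the mean over all libraries was 50 or more, the median half-width of the 95% interval was 0.49 on the log2 scale. That interval is not adjusted for the number of genes, and a call at the adjusted threshold needs a larger difference.

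**Figure D2:**
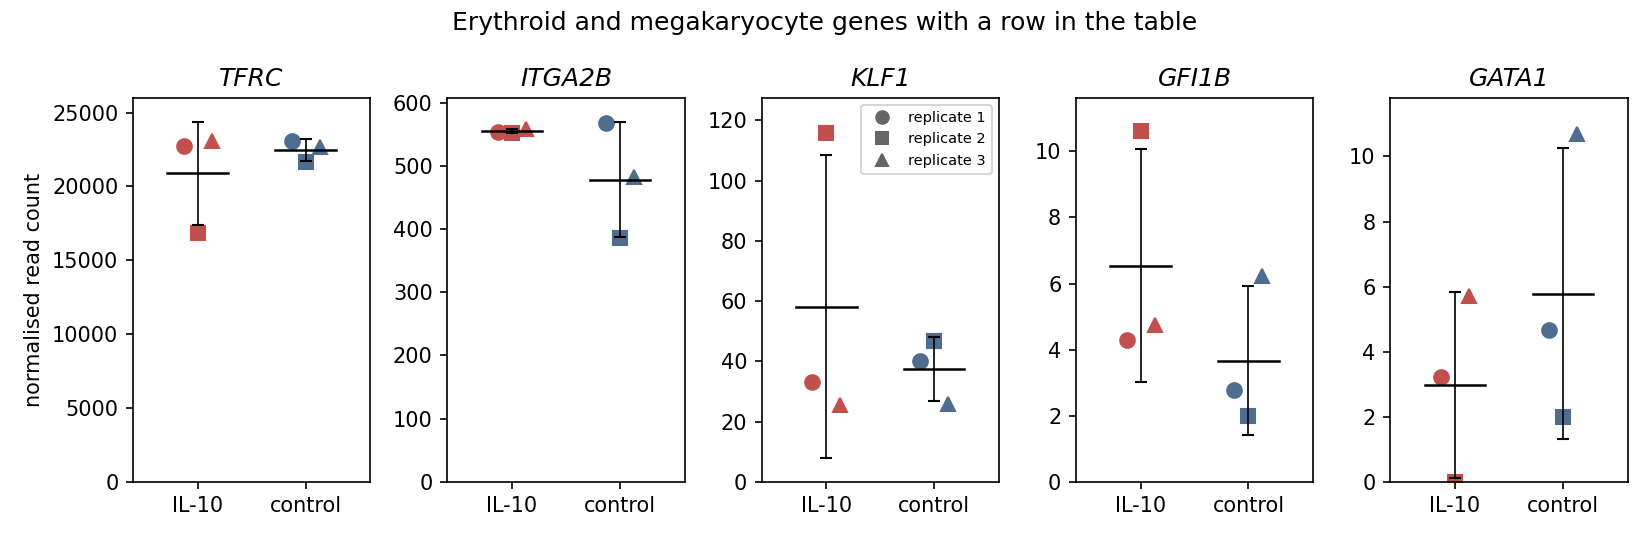
Normalised read count of the 5 members in each library (points; symbols give the replicate number), IL-10 left of control, with the mean and SD (n = 3). IL-10 replicate 2 is the lowest library for TFRC and GATA1 and the highest for KLF1 and GFI1B, and the groups overlap in all 5 panels.

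TFRC (ENSG00000072274, chromosome 3, 196027183 to 196082189, minus strand) is regulated after transcription: hairpins in its 3′ UTR, called iron-responsive elements, bind the proteins encoded by ACO1 and IREB2 when iron is scarce, which protects the transcript. The same proteins bind a hairpin in the 5′ UTR of the ferritin genes and block their translation. The sequences are shown because iron acts on TFRC and ferritin through sites of this kind. Each is given 5′ to 3′ on the transcript strand, with the loop CAGTGN in capitals, from GENCODE 29 (GRCh38).
TFRC chr3:196050979-196051007: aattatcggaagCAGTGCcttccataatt
TFRC chr3:196050575-196050603: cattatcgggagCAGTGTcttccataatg
TFRC chr3:196050510-196050538: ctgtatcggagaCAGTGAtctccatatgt
TFRC chr3:196050463-196050491: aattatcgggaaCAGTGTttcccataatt
FTL chr19:48965335-48965363: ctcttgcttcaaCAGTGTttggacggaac
FTH1 chr11:61967574-61967602: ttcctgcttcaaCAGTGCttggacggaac
The search asked for a C, then 5 bases, then the loop, with those 5 bases paired to the 5 that follow the loop. It matched a 3′ UTR of 0.67% and a 5′ UTR of 0.18% of 19684 protein-coding genes. Among the listed iron genes it also matched the 5′ UTR of ALAS2 and of SLC40A1, which are not printed. A search this strict need not find every site.

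TFRC had 22755, 16866 and 23045 normalised reads in IL-10 replicates 1 to 3 and 23086, 21651 and 22647 in control replicates 1 to 3. IL-10 replicate 2 alone was low, and the other 5 libraries lay close together. The mean was 20889 ± 3486 in IL-10 libraries and 22461 ± 735 in control libraries (SD, n = 3 each). The log2 fold change was -0.12 (SE 0.18, 95% interval -0.53 to 0.29, limma adjusted p = 0.982), and its sign turned to 0.03 (-0.16 to 0.22) without IL-10 replicate 2. Transcripts of TFRC have 41.5% GC, and IL-10 replicate 2 deviated by -0.42 on the log2 scale for TFRC, where the median gene of like GC deviated by -0.34.

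For 3 other genes of the iron circuit, FTL, IREB2 and TFR2, IL-10 replicate 2 was again the library apart. For ACO1 it was not: ACO1 had 976, 1005 and 1021 in IL-10 libraries and 1014, 817 and 1035 in control libraries. FTL, the ferritin light chain gene, had 11607, 19774 and 12306 in IL-10 libraries and 11250.3, 12368 and 11908 in control libraries, with a log2 fold change of 0.26, or 0.01 without IL-10 replicate 2. IREB2 had 5496, 3266 and 5736 in IL-10 libraries and 5486, 4985 and 5471 in control libraries, and its log2 fold change of -0.18 turned positive without IL-10 replicate 2. TFR2, the second transferrin receptor gene, had 911, 1596 and 891 in IL-10 libraries and 941, 1037 and 839.9 in control libraries, with a log2 fold change of 0.22 that turned to -0.06 without IL-10 replicate 2. Of 14 genes for iron uptake, storage and export, all were tested and 0 were called, with 9 positive, 5 negative and a median log2 fold change of 0.09, or 0.05 without IL-10 replicate 2. Of 12 haem synthesis genes 0 were called, 10 were positive and 2 negative, and the median was 0.13, or 0.01 without IL-10 replicate 2. ALAS1, the housekeeping form of the first enzyme of haem synthesis, had 3063, 3751 and 3142 in IL-10 libraries and 2949, 2626 and 3037 in control libraries, groups that did not overlap (2.85% of all genes tested were separated in this direction). Its log2 fold change was 0.21, or 0.11 without IL-10 replicate 2. ALAS2, the red cell form, had 14 reads in the IL-10 libraries and 9 in the control libraries.

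**Figure D3:**
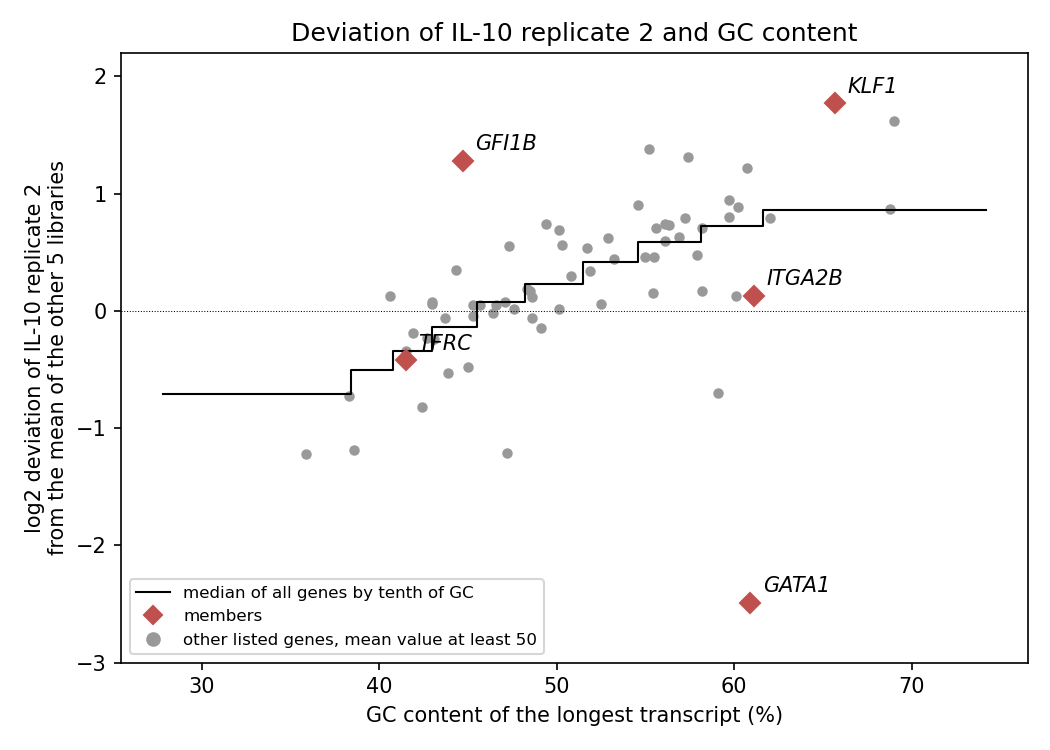
Deviation of IL-10 replicate 2 from the mean of the other 5 libraries (log2) against the GC content of the longest transcript (%), for the members (red) and other listed genes of mean at least 50 (grey); the line is the median of all genes of mean at least 50 in 10 bins of GC. TFRC lies near the line at -0.42, KLF1 above it at 1.77 and ITGA2B below it at 0.13. GATA1, at -2.49 where the line is at 0.72, and GFI1B, at 1.28 where it is at -0.14, lie further off, on few reads.

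No row was present for HBG1 or HBG2, the fetal gamma globin genes, or for HBD, the minor adult beta-like gene, on chromosome 11. Every row of the table held at least 2 reads in total. In GENCODE 29 the exons of HBG1, HBG2 and HBD overlap other annotated genes, and 31.0% of the 50-base windows of HBG1 and 42.0% of those of HBG2 also occur in another gene. An absent row and reads lost to such overlap cannot be told apart. HBE1, HBZ, HBM and the globin chaperone gene AHSP had no row either.

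Of the other globins, HBB, the adult beta globin gene, had 9.62, 18.8 and 13.3 normalised reads in IL-10 libraries and 4.66, 1.99 and 7.12 in control libraries. The groups did not overlap, with 39 reads in the IL-10 libraries and 15 in the control libraries. Their ratio, scaled by the size factors, was 2.93 (exact 95% counting interval 1.58 to 5.73). The log2 fold change of HBB was 1.48 (95% interval 0.39 to 2.58), with an unadjusted p of 0.0134 in limma and an adjusted p of 0.982, so it did not pass. In pairs 1, 2 and 3 the log2 ratio of HBB was 0.91, 2.73 and 0.82; pairs 1 and 3 alone gave 0.86, and without IL-10 replicate 2 the fold change was 1.26, with an interval that reached 0 and 2.51. HBA2, an alpha globin gene, had 5.34, 5.88 and 4.75 in IL-10 libraries and 1.86, 0.994 and 1.78 in control libraries. These groups did not overlap either (2.85% of all genes were higher with IL-10 in this way), with 15 reads in the IL-10 libraries and 5 in the control libraries (ratio 3.38, counting interval 1.17 to 11.9; limma adjusted p = 0.982). HBA1, its near-identical copy, went the other way, with 1 read in the IL-10 libraries and 4 in the control libraries (log2 fold change -0.68). Since 89.7% of the windows of HBA2 occur in another gene, chiefly HBA1, the pair was also summed. HBA1 plus HBA2 had 6.41, 5.88 and 4.75 in IL-10 libraries and 3.73, 2.98 and 1.78 in control libraries. That sum rests on 16 reads in the IL-10 libraries and 9 in the control libraries. HBQ1, the theta globin gene, was the most abundant globin, with 239, 419.6 and 198 in IL-10 libraries and 237, 242 and 231 in control libraries. Its groups overlapped, and its log2 fold change of 0.19 turned to -0.12 without IL-10 replicate 2. Of 8 such globin and chaperone genes 4 had a row and were tested. Of these 0 were called, 3 were positive and 1 negative. The median log2 fold change was 0.76, or 0.57 without IL-10 replicate 2, and HBB, HBA2 and HBA1 enter it with few reads.

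**Figure D4:**
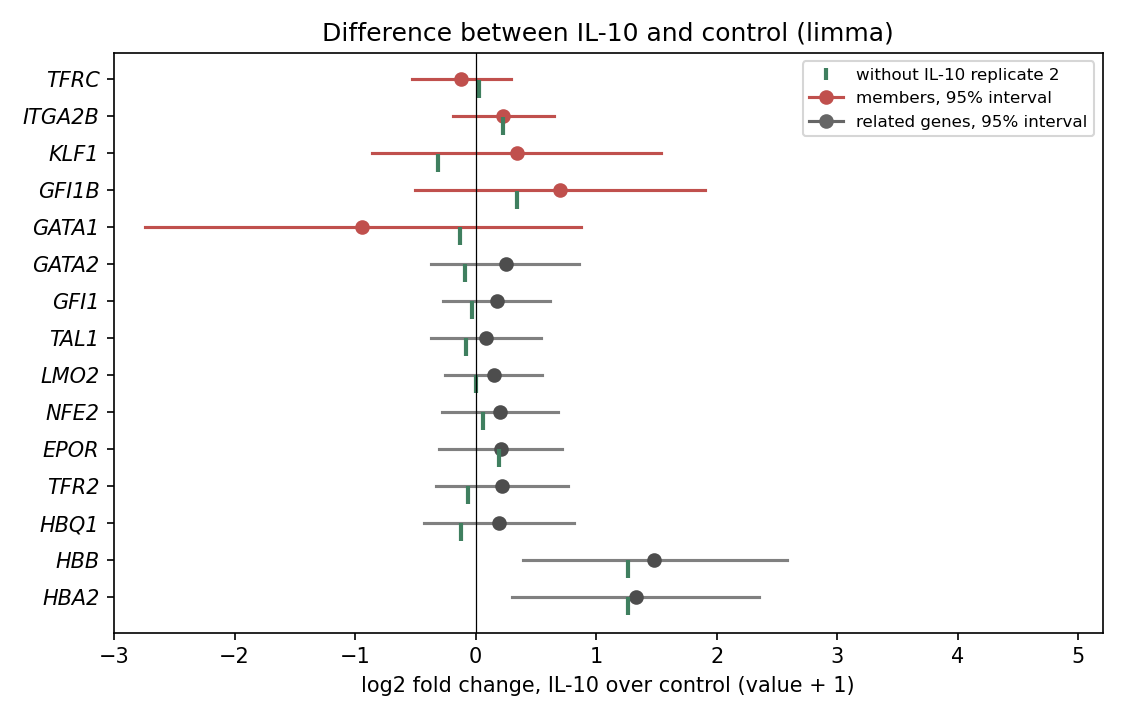
Log2 fold change, IL-10 over control on the log2(value + 1) scale, from limma with its 95% interval, for the members (red) and related genes (grey); green ticks are the values without IL-10 replicate 2. Intervals of all 5 members include 0, and those of HBB and HBA2 do not; neither gene passed the adjusted threshold, and without IL-10 replicate 2 the interval of HBB reached 0.

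ITGA2B (ENSG00000005961, chromosome 17, 44372180 to 44389505, minus strand), the alpha subunit of the platelet fibrinogen receptor, had 553, 552 and 558 normalised reads in IL-10 replicates 1 to 3 and 567, 385 and 482 in control replicates 1 to 3. The IL-10 libraries were nearly equal and lay inside the range of the control libraries, where control replicate 2 was low. The log2 fold change was 0.23 (SE 0.19, 95% interval -0.19 to 0.65, limma adjusted p = 0.982), and 0.08 without control replicate 2. With a correction for GC content it was also 0.08. Although ITGA2B transcripts have 61.1% GC, IL-10 replicate 2 deviated by only 0.13 on the log2 scale, where the median gene of like GC deviated by 0.72. ITGB3, its partner subunit, had 6 reads in the IL-10 libraries and 7 in the control libraries. PF4 had no row, nor did its near-copy PF4V1, which shares 13.7% of the windows of PF4. PPBP, another platelet chemokine gene, had 3 reads in the IL-10 libraries and 1 in the control libraries.

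Of 25 platelet and megakaryocyte genes, 20 had a row and 17 were tested; 0 were called, 5 were positive and 12 negative, and the median log2 fold change was -0.20, or -0.28 without IL-10 replicate 2. Groups did not overlap for 2 of them, both lower with IL-10 (3.02% of all genes): THBS1, with 2 reads in the IL-10 libraries and 12 in the control libraries, and the collagen receptor gene ITGA2, with 25.7, 27 and 29.4 in IL-10 libraries and 31.7, 31.8 and 40.9 in control libraries. The most abundant were PLEK, with 5464, 5462 and 5181 in IL-10 libraries and 5274, 5081 and 5427 in control libraries, then SPARC and RAB27B. Of 22 red cell membrane, receptor and enzyme genes, 17 had a row and 16 were tested; 0 were called, 11 were positive and 5 negative, with a median of 0.13, or 0.08 without IL-10 replicate 2. GYPB, RHAG and CA1 were among those with no row. EPOR, the erythropoietin receptor gene, had 468, 555 and 613 in IL-10 libraries and 479.8, 357 and 601 in control libraries. CA2, a carbonic anhydrase gene, had 10491, 7959.5 and 13916 in IL-10 libraries and 10615, 7747 and 13977 in control libraries, so its values followed the replicate number and not the treatment. Of 25 transcription factors and cofactors, all were tested and 0 were called, with 18 positive, 7 negative and a median of 0.09, or 0.00 without IL-10 replicate 2. The genes of highest mean value in this list, not divided by length, were LYL1, RUNX1 and MYB. Per kilobase, RUNX1 (1573) lay below LYL1 (8351), MYB (1781), KDM1A (1647) and GFI1 (1597).

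Ratios within same-numbered libraries showed where the spread lay. For TFRC the log2 ratio of IL-10 over control was -0.02, -0.36 and 0.03 in pairs 1, 2 and 3, for ITGA2B it was -0.04, 0.52 and 0.21, and for KLF1 it was -0.27, 1.30 and -0.01. For GFI1B it was 0.48, 1.95 and -0.33. GATA1 alone among the 5 was lower with IL-10 in all 3 pairs, at -0.43, -1.58 and -0.80, on 9 reads in the IL-10 libraries and 19 in the control libraries, and with the replicate as a block its 95% interval was -2.08 to 0.21 (limma adjusted p = 0.851). In pair 2 the ratios of the members lay on both sides of 0. Among genes of mean at least 50, 0.612%, 35.2% and 0.414% differed by 1.5-fold or more in pairs 1, 2 and 3. Of 23 such transcription factor genes 9 did so in pair 2, and 0 in pairs 1 and 3. Of 13 iron genes 8 did so in pair 2, and 0 in the others.

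**Figure D5:**
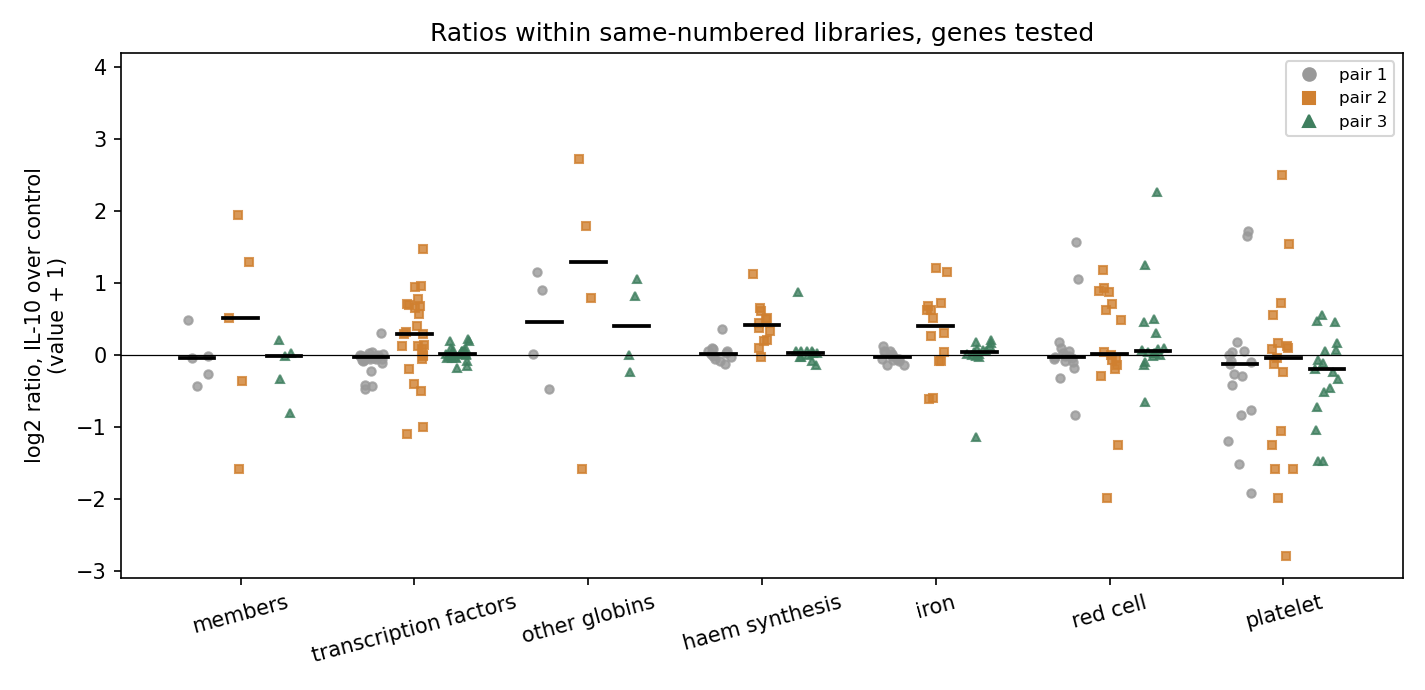
Log2 ratio of IL-10 over control within each same-numbered pair of libraries, on the log2(value + 1) scale, 1 point per gene tested in each list; bars are medians. For transcription factor, haem synthesis and iron genes the medians in pairs 1 and 3 lie between -0.03 and 0.04, and in pair 2 they are 0.29, 0.41 and 0.41. In these lists single genes of low level reach -1.14 in pair 3. Medians in pairs 1 and 3 are 0.46 and 0.41 for the other globins and -0.12 and -0.19 for platelet genes. They are -0.04 and -0.01 for the members and -0.03 and 0.05 for red cell genes. Single red cell and platelet genes reach 2.26 and -1.48 in pair 3.

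The genes most like a member were sought by the root mean square difference of centred log2 values over the 6 libraries, for the members of mean at least 50. For TFRC they were MSH6 at 0.017 and NEMP1 at 0.020, against a median of 0.284 over 11605 genes. For ITGA2B they were ST3GAL1 at 0.054 and LHX2 at 0.058, against a median of 0.305. Each likeness rests on the same 6 libraries, and depth and GC content are shared within a library.

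Cells of other lineages that also use GATA1 were looked for by their markers. Of 8 mast cell and basophil markers 6 had a row, and their summed level was 62 to 142 in IL-10 libraries and 61.5 to 112 in control libraries; CPA3 and MS4A2 had no row. Of 8 eosinophil markers 6 had a row, and their summed level was 219.8 to 413 in IL-10 libraries and 212 to 443 in control libraries. RNASE2 alone, with a mean of 275 over the 6 libraries, made up most of this sum, and the next marker, EPX, had 13.5; PRG3 and CLC had no row. The part of such cells in the levels of GATA1 and GFI1B was not tested.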

How the data were processed

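Per the labels' protocols, RNA was isolated with Trizol and sequenced from Illumina TruSeq RNA libraries. Although the deposited table is called FPKM, it holds a normalised signal. All values of a library (100%) were multiples of a single step, within 0.01 read. Each is thus a read count over a size factor, 0.8508 to 1.124, as the authors deposited it. The submitters' processing notes list GRCh38, hg38 and, as a tool, edgeR 3.18.1, and do not say how they were used; for the aligner, counter, annotation and strand the answer is not given in the sources used here. The design had assumed FPKM, and its test was kept on the deposited values. The step of control replicate 2, 0.9944, lies too near 1 for an automatic check of recovered reads, so the edgeR test was also run without that library.

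Members and lists were chosen with earlier results of these data known. Symbols were found for 26883 identifiers, and 27052 matched GENCODE 29. IL-10 was compared with control in limma 3.58.1 under R 4.3.3, with a mean-variance trend, on log2(value + 1), two-sided. The filter kept 21946 genes that reached a value of 1 in 3 or more libraries, and p-values were adjusted by Benjamini-Hochberg. The scale understates the fold changes of low genes. Counting intervals and the floor of 3 reads per library cover counting error only. Alternatives on recovered reads used edgeR 4.0.16 (quasi-likelihood) and DESeq2 1.42.0. Named genes are every member, the 3 of highest mean per list, partner genes listed in the design and, for likeness, the 2 nearest genes; others, such as THBS1, ITGA2 and TSC1, were named after their values were seen. Some genes of these lists are not reported here by name. The scripts were tested on simulated data. Simulated libraries differed only in depth, in random spread and, for the changed genes, in group. They held no GC, liver or pair effect, so the test does not cover those features of the real libraries.

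Same-numbered libraries deviated together from their group means, with correlations of 0.367, 0.605 and 0.726 over 11605 genes. IL-10 replicate 1 with control replicate 3, at 0.176, and IL-10 replicate 3 with control replicate 1, at 0.208, were also positive. The remaining correlations of differently numbered libraries lay between -0.692 and -0.312. Replicate numbers were treated as pairs only for the ratios within pairs and in alternative settings. The main limma test held the treatment alone, so its SEs, intervals and p-values are unpaired. This pairing is read from the data alone, because the labels state a number and nothing more.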

Additional observations from a re-analysis of the deposited data

How the results depend on the processing

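Over 23 alternative settings, 0 of 877 recomputed fold changes of 39 named genes passed the threshold, and 109 changed sign. TFRC changed sign in 5 settings, with values from -0.29 to 0.03, and KLF1 in 4, with values from -0.31 to 0.79. ITGA2B (0.07 to 0.36), GFI1B (0.07 to 1.07), GATA1 (-1.93 to -0.13), HBB (0.86 to 1.81) and HBA2 (0.66 to 1.77) kept their sign. The smallest adjusted p of HBB was 0.237 and that of HBA2 0.202. Over all genes 0 were called in each setting but one: pairs 1 and 3 only with the replicate block called 11 of 20308 genes (0.0542%), and without the block 0; the cause was not tested. Leaving out each replicate in turn called 0 genes every time. The replicate block over all 3 pairs called 0 genes, where 512 had an unadjusted p under 0.05, and it altered no call on a named gene or list. Scaling to equal totals moved the median of all genes to -0.08. A sum of HBG1 and HBG2 could not be run without rows. At 9 to 19 reads per group, GATA1 and GFI1B limit what depth can show. The GC corrections, edgeR without control replicate 2 and the unblocked fit of pairs 1 and 3 were chosen after seeing the data.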
